A study of Bos taurus with 2 samples.

Results

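Deubiquitinating enzymes were followed in the testes of crossbred and Zebu bulls. Members were taken by their name on the array, as every gene called USP with a number, every OTUD and OTUB gene, and UCHL3, UCHL5 and BAP1. This gave 58 genes of 32429 gene names, measured by 137 probes of 60 bases. UCHL1 was left out by the rule and is given only with the neighbouring genes of the pathway. The rule also takes in USP6NL, a Rab GTPase-activating protein that shares the name but is no deubiquitinase.

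The crossbred group was made of Holstein Friesian crossbred bulls with 50 to 75% exotic inheritance, and the Zebu group of Tharparkar bulls. Each group had 3 bulls of 24 months, whose testis RNA was pooled in equal amounts, labelled with Cy3 and hybridized to 1 Agilent bovine array, so each group was 1 sample. Both arrays lay on the same slide. The study set these groups side by side to look for transcripts that go with the poorer semen of crossbred bulls.

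Ubiquitin is a small protein that is attached to other proteins and marks them, often as chains, for breakdown by the proteasome or for a change in place or partner. Deubiquitinating enzymes cut it off again, so they rescue proteins from breakdown, edit chains, reset histones and recover free ubiquitin. In the testis the system is heavily used, since histones are ubiquitinated and removed and much of the cytoplasm is discarded while spermatids become sperm.

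Values are log2 processed signals minus the 75th percentile of the array, and differences are the crossbred value minus the Zebu value. A probe was read as detected where the scanner software marked it as well above background on at least 1 array. A gene was read from its brightest probe and called higher or lower where its difference reached 1.5 in size, a linear 2.83-fold, with the brighter array well above background. With 1 array per group there is no replicate check and no p-value. Over 5960 probes with several spots, repeated spots had an SD of 0.29 (crossbred) and 0.18 (Zebu), and their difference had an SD of 0.33, which covers spotting and scanning only. Probes of the same member gene differed from each other by more than that, with an SD of 0.59 over 39 genes with several probes, or 0.49 without probes in 2 patches of uneven signal on the arrays, described below, against 0.51 over 8185 genes of the array. Levels of different probes depend on their binding and are not compared.

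The tissue label was checked against cell markers. Spermatid markers were present at high signal and were higher in the crossbred pool in 6 of 6 genes, by a median of 1.67, with a summed log2 level of 8.63 against 7.89. Markers of spermatocytes were higher in 4 of 4 genes by a median of 0.52, though SYCP3 at 0.20 and HORMAD1 at 0.14 lay within the spot SD. The listed spermatocyte marker SYCP1 and Sertoli cell marker SOX9 were not on the array by name. Spermatogonial markers were lower in 5 of 5 genes (median -0.89), Leydig cell markers in 5 of 5 (median -0.998), Sertoli cell markers in 4 of 4 (median -0.996) and smooth muscle and peritubular markers in 3 of 3 (median -0.99). Of the macrophage markers, CD68 lay at 0.20 and CSF1R at -0.19, and CD163 was detected on the Zebu array only. Of 3 red blood cell genes only HBA was detected, at -2.15. Fewer cells of a type and less RNA per cell cannot be told apart in such pools, and the part of cell makeup in the differences below was not tested.

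By their brightest probe, 55 of the 58 genes were detected on both arrays, and USP26 on the Zebu array only. OTUD6A and USP30 were well above background on neither array and have no difference. Across the 56 detected genes the median difference was -0.05, and across all 24751 detected gene names it was also -0.05. Among the 55 genes measured on both arrays, 24 were above 0 and 31 below, and 33 of the 55 differed by less than 0.5 in size, against 52.2% of all gene names measured on both arrays.

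Higher in the crossbred pool past the threshold were USP49, USP44, USP50 and OTUB2, and lower was USP18. These 4 genes higher were 7.14% of the 56 detected, against a background of 7.12% of all detected gene names, and the 1 lower was 1.79% against 2.92%. Counted by probe, 6 of 127 detected probes were higher (4.72%) against 6.14% of all detected probes, and 5 were lower (3.94%) against 2.99%. Of these 5 lower probes, those of USP18 and USP39 lay in the dark patch described below, and those of USP22 and USP40 were detected in the Zebu pool only, with bounds of 3.11-fold and 1.31-fold. Thus the shares past the threshold were near the background of the array. The spermatid markers, of which 4 of 6 passed the threshold, were higher in the same pool as USP49, USP44 and USP50, and their part in these calls was not tested.

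**Figure D1:**
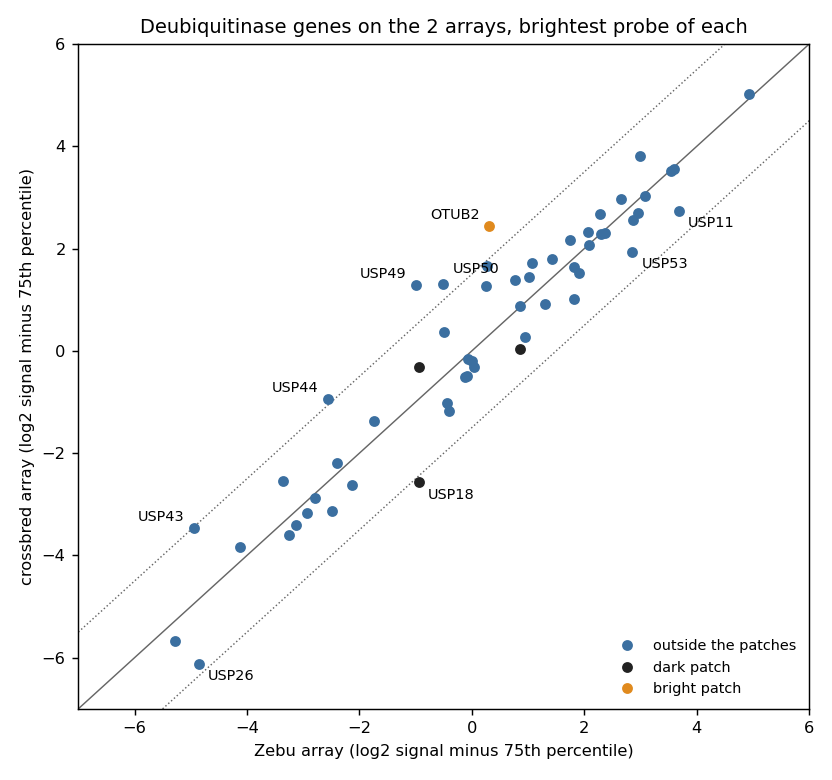
Each point is the brightest probe of 1 detected deubiquitinase gene, with its Zebu value on the horizontal axis and its crossbred value on the vertical axis (log2 signal minus the array's 75th percentile). The solid line marks equal values and the dotted lines a difference of 1.5 in size. USP49, USP44, USP50 and OTUB2 lie above the upper line, and USP18 lies just below the lower line. OTUB2 (orange) was read in the bright patch and USP18 (black) in the dark patch, both described below.

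In 2 places local faults touch some members, a dark patch of the crossbred array and a bright patch. In a dark patch of 544 spots the median difference was -1.37, and in a bright patch of 105 spots it was 1.29, against -0.07 over the rest of the array. Single probes of USP18, USP33, USP39 and OTUD3 lay in the dark patch, and 1 probe of OTUB2 lay in the bright patch. Beside each of these values the median of the 18 nearest spots is given. It was taken over those of them detected on at least 1 array, with at least 6 required.

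Among the enzymes that act on histones and chromatin, USP49 and USP44 passed the threshold, both known for removing ubiquitin from histone H2B. The probes that carry these differences were as follows, with the bases that overlapping USP44 probes share in capitals and each probe named by its start in the transcript. The probe starting at base 1595 of USP49 lies at chr23:16232824-16232883 on the minus strand, and that at base 770 at chr23:16237744-16237803 (build HGSC Btau_3.1, as are all positions here). The probes of USP44 lie at chr5:27919006-27919065, chr5:27918986-27919045 and chr5:27929864-27929923 on the minus strand, and the array files place all of them in transcripts, so in exons.
USP49 1595: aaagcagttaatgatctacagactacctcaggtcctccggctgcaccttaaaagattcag
USP49 770: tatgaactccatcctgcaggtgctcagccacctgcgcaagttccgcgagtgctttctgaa
USP44 2170: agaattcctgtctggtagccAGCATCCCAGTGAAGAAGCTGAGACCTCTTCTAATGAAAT
USP44 2190: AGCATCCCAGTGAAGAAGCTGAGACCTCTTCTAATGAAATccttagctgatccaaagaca
USP44 601: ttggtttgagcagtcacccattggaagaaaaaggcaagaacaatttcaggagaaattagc

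USP49 read 1.29 in the crossbred pool and -0.999 in the Zebu pool at the 1595 probe, a difference of 2.29 or 4.88-fold. At the 770 probe it read -2.76 and -4.004, a difference of 1.24 or 2.37-fold. Both probes were higher in the crossbred pool by more than the spot SD, and the dimmer one did not reach the threshold. Another probe, which the array lists by accession and describes as USP49, read 2.06 and -0.47 over 2 spots, a difference of 2.53. It is shown as a possible further reading of this gene. The array files give it no position, and only its description ties it to USP49.
USP49, listed by accession: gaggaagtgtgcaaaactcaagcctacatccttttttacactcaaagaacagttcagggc

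USP44, which also takes part in the mitotic checkpoint, read -0.94 and -2.57 at the 2190 probe, a difference of 1.63. The 2170 probe shares 40 bases with it and is no separate measurement of the transcript, and it gave 1.77. The 601 probe, nearer the start of the transcript, read -2.22 and -3.25, a difference of 1.03. All 3 probes were higher in the crossbred pool. A probe listed by accession and described as USP44 gave 0.57 (-3.26 and -3.83), the smallest of the 4 readings.

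The other 9 detected members of this histone and chromatin list did not pass the threshold at their brightest probe, and 6 of them were below 0. USP22, the deubiquitinase of the SAGA complex, read 0.27 and 0.95 at its brightest probe, a difference of -0.68, and -3.21 and -2.68 at the next, a difference of -0.54. Its probe at base 518 (chr19:36170067-36170606, minus strand, across a splice junction) was detected in the Zebu pool only, at -4.14, so that pool was at least 3.11-fold higher there. The USP22 transcript was thus lower in the crossbred pool at every probe, with sizes that differed between probes.
USP22 518: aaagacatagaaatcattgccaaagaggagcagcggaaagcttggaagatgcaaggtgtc

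USP27X, an X-linked relative of USP22 that can use the same activating subunits, read 1.01 and 1.81 (-0.80) at 1 probe and -4.97 and -4.79 (-0.18) at the other. USP11, an X-linked enzyme known for work in DNA repair, was lower in the crossbred pool at all 5 of its probes, from -1.20 to -0.44 with a mean of -0.88 ± 0.29 (SD over the 5 probes, on 1 array per group). Its brightest probe read 2.74 and 3.68. Each of these probes was below 0 by more than the spot SD, and none reached 1.5. The probes with the largest and the smallest USP11 difference are shown. They lie at chrX:56572916-56573193 (base 2045, across a splice junction) and chrX:56575372-56575431 (base 1525) on the minus strand.
USP11 2045: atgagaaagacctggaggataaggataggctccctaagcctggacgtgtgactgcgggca
USP11 1525: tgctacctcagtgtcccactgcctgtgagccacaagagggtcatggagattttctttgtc

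BAP1, a tumour suppressor that removes ubiquitin from histone H2A, read 5.02 and 4.92, a difference of 0.10, and 0.58 at its other detected probe. USP7, which steadies MDM2 and p53, read 2.98 and 2.65, a difference of 0.33. USP16, an H2A deubiquitinase, had probes of opposite sign, 0.60 and -0.53. USP3, which also acts on H2A, gave -0.39 and -0.71 at its probes, USP21 gave -0.64 and -0.13, and the nucleolar enzyme USP36 gave -0.29 and -0.15. The list of 11 genes thus held 2 called higher and none called lower, where the background was 7.12% and 2.92% of all detected gene names. Its median was -0.29, against -0.05 over all detected gene names, and no test of the list was made.

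**Figure D2:**
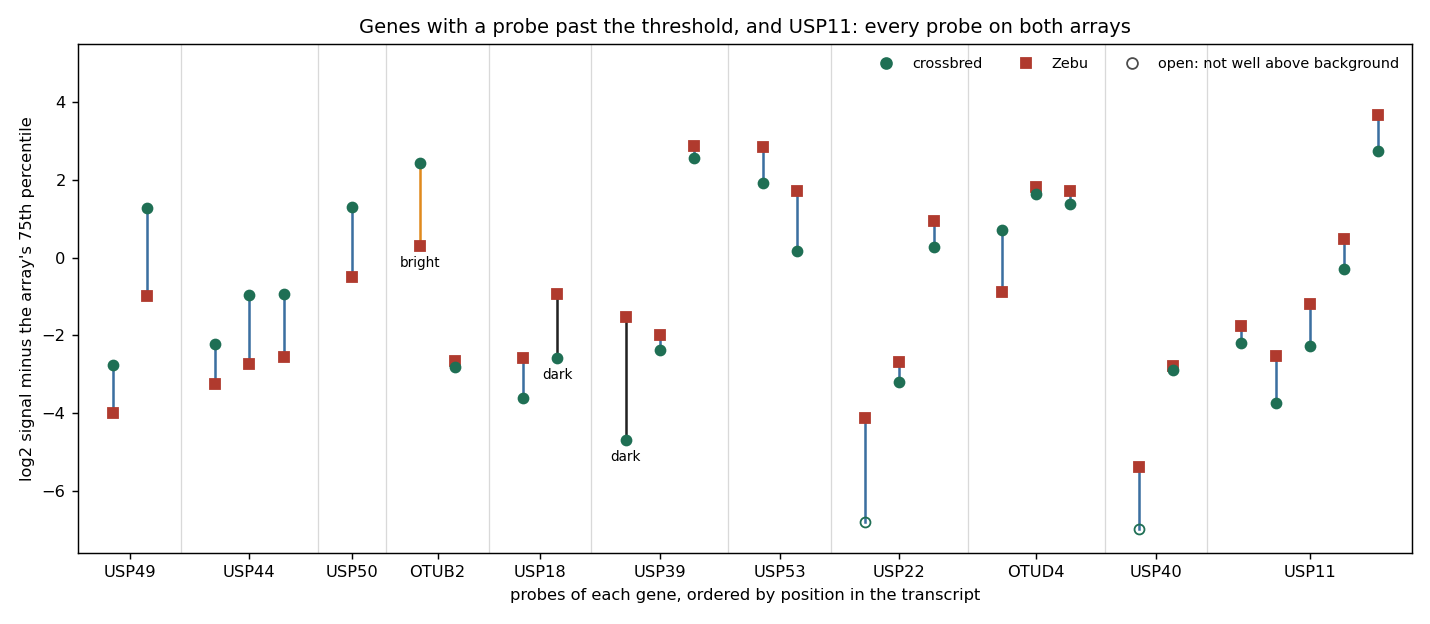
Every probe of the genes with a probe past the threshold, and of USP11, is drawn as a vertical line between its crossbred value (green circle) and its Zebu value (red square), in log2 signal minus the array's 75th percentile. Open symbols were not well above background, and probes in the dark and bright patches are labelled. OTUB2 and OTUD4 had probes of opposite sign, and the other genes with several probes kept 1 direction at all of them. OTUB2, USP39 and OTUD4 each had 1 probe far from the rest.

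USP50, a USP family member thought to lack protease activity, had a single probe, at chr10:61181944-61182003 on the plus strand. It read 1.30 (crossbred) and -0.51 (Zebu), a difference of 1.81 or 3.51-fold. The 18 nearest spots had a median of 0.10. No other probe bears on USP50.
USP50 716: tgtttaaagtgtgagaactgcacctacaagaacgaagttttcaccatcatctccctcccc

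The OTU family holds cysteine proteases with another fold than the USPs, several of which cut particular chain types. OTUB2 read 2.43 and 0.30 at a probe in the bright patch, a difference of 2.13, where the 18 nearest spots had a median of 0.58. At its other probe, outside the patches, it read -2.81 and -2.66, a difference of -0.15, so the call for OTUB2 was not seen outside the patch. OTUB1, an abundant relative that also blocks ubiquitin-conjugating enzymes, read 3.82 and 2.99 over 2 spots, a difference of 0.82, and 0.87 at its other detected probe.
OTUB2 484 (chr21:58963294-58964310, plus strand, across a splice junction): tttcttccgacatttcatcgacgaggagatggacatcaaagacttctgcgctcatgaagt

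OTUD7B, which cuts K11-linked chains and restrains NF-kB signalling, was higher in the crossbred pool at both probes, by 0.81 and 0.67. OTUD7A gave 0.37 and 0.01, the latter from 2 spots at -0.26, beside the dark patch, and 0.29. OTUD3, whose only probe lay in the dark patch, read -0.31 and -0.95, a difference of 0.64, where the nearest spots had a median of -0.40. OTUD1 was lower at all 3 probes, from -0.46 to -0.21, and OTUD5, an X-linked gene, read -3.59 and -3.25 (-0.34).

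OTUD4 gave opposite readings along its transcript. The probe at base 2902 read 0.71 and -0.90, a difference of 1.60, while the brighter probes at 5255 and 6987 gave -0.18 and -0.36, the latter from 2 spots at -0.40 and -0.31. The nearest spots of these probes had medians of 0.03, -0.51 and -0.03. Over the 8 detected OTU genes, 5 were above 0 and 3 below, with a median of 0.50. Past the threshold was 1 gene, against a background of 7.12% of all detected gene names. That gene was OTUB2, called only at its probe in the bright patch. The values of OTUB2 and OTUD3 were both read in the patches, so the counts and the median rest in part on faulty places.

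**Figure D3:**
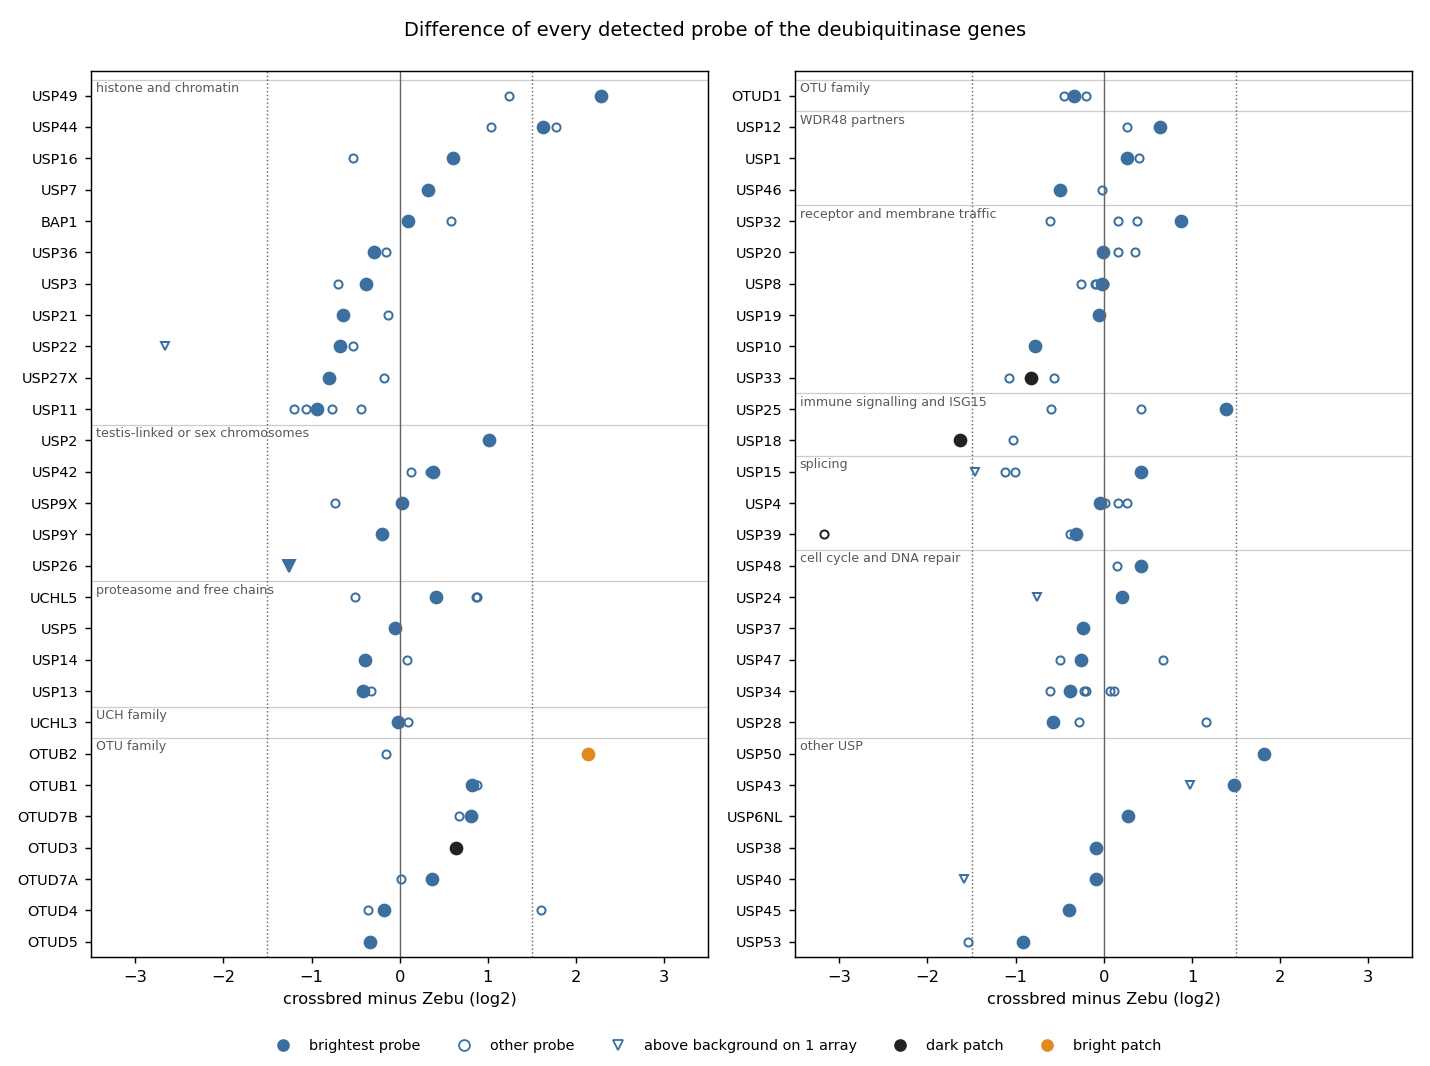
Each row is a deubiquitinase gene and each symbol a detected probe, placed by its crossbred minus Zebu difference (log2), with genes grouped by role and ordered by their brightest probe (filled). Triangles were well above background on 1 array only, black symbols lay in the dark patch and the orange one in the bright patch, and dotted lines mark 1.5 in size. Most symbols lie within 1 of 0, and single probes of USP22, USP39, OTUD4, USP40 and USP53 are drawn past the lines although the brightest probe of the gene is not. The triangles are drawn at the measured signals, and for USP40 the bound is only 1.31-fold.

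Enzymes bound to the proteasome, and those that take apart free chains, differed little. UCHL5, a UCH enzyme held on the proteasome by ADRM1, read 2.68 and 2.28 at its brightest probe, a difference of 0.41, with 0.86 and 0.88 at the next and -0.51 at the dim probe farthest along the transcript. USP14, the other enzyme that binds the proteasome reversibly, gave -0.39 and 0.08. USP5, which recycles free chains, read 3.02 and 3.07 (-0.05), and its relative USP13 gave -0.41 and -0.32. UCHL3, a UCH enzyme that trims small adducts of ubiquitin and NEDD8, read 3.51 and 3.54, a difference of -0.02, and 0.09 at its other probe. The array files place the brighter UCHL3 probe at chr12:51024001-51024060 on the plus strand. They place the other at chr12:50324297-50324356 on the minus strand, so these may not be readings of the same transcript.

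Of the genes linked to the testis or the sex chromosomes, USP2, of which a form in spermatids is known, read 1.26 and 0.25 at its single probe, a difference of 1.01 or 2.01-fold. USP42 gave 0.38, 0.34 and 0.13 at its 3 probes. USP26, an X-linked gene known for expression in the testis, was detected in the Zebu pool only, at -4.86, which made it at least 1.89-fold higher there. A probe listed by accession and described as USP26 read -6.68 and -5.76 and was well above background on neither array. USP2 and USP42 were thus on the crossbred side and USP26, at its only detected probe, on the Zebu side, none past the threshold.
USP2 1662 (chr15:28479942-28480169, minus strand, across a splice junction): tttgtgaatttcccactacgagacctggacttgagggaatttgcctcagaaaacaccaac

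USP9X read 0.87 and 0.85 at its brightest probe, a difference of 0.02, and -0.18 and 0.56 at the other, a difference of -0.74. USP9Y, its Y-linked partner, read -0.20 and 0.00 (-0.20). Further probes listed by accession and described as USP9Y gave -0.67, -0.48 and -0.64. The array files place them on the same unplaced contig and strand as the USP9X probes and not with the USP9Y probes. They are thus counted for neither gene here. Only the alternative that adds probes listed by accession counts them as USP9Y, which it reads at -0.64. Among the 137 probes that carry a member's name, no pair from different genes shared more than 59.1% of bases over 40 or more aligned bases, in 9184 pairs. The probes listed by accession were not in that comparison.

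Of the 58 genes, 6 are placed on the X chromosome by the RefSeq gene table (assembly ARS-UCD2.0), and 5 of these were detected. They were USP11, USP27X, OTUD5, USP9X and USP26, with a median of -0.80, and 10 of their 11 detected probes were below 0. X-linked genes of the whole array were also lower in the crossbred pool, with a median of -0.44 over 445 genes, of which 74.4% were below 0, against -0.04 and 52.4% over 12573 autosomal genes. The 4 X-linked members below 0 thus lay on the same side as most X-linked genes of the array, and the part of this in their values was not tested.

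**Figure D4:**
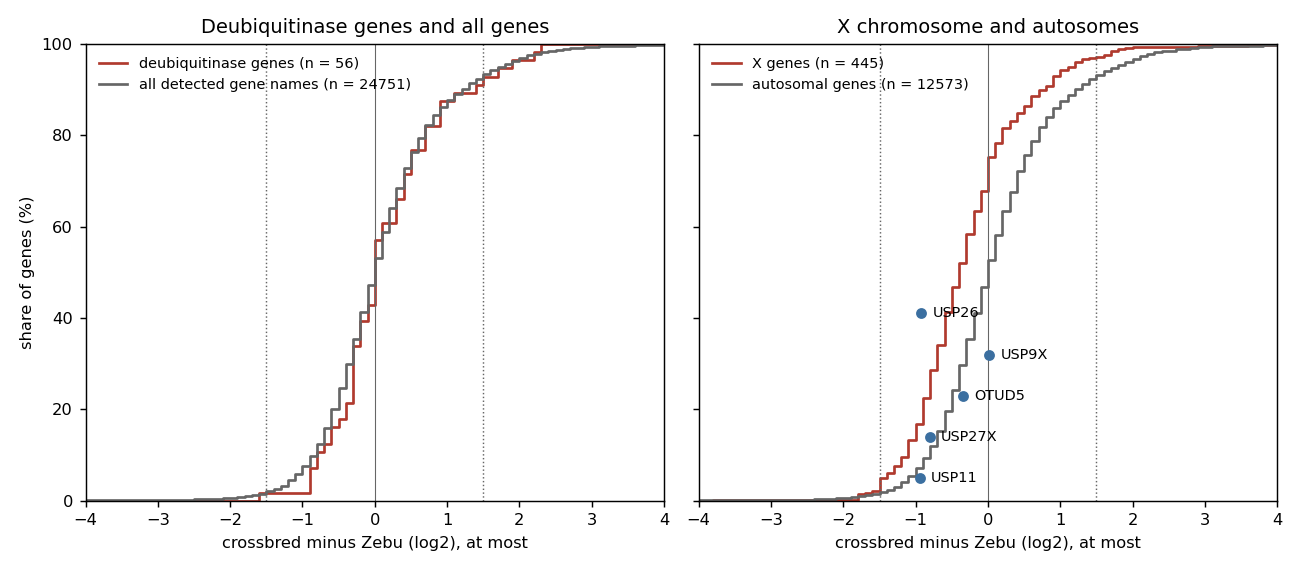
Curves give the share of genes (%) with a crossbred minus Zebu difference (log2) of at most the value on the horizontal axis, for the 56 detected deubiquitinase genes and all 24751 detected gene names on the left, and for 445 X-linked and 12573 autosomal genes on the right. Points on the right mark the X-linked deubiquitinase genes, with USP26 at its bound and their heights chosen only for legibility. The left curves nearly overlie, and the X-linked curve on the right lies to the left of the autosomal one.

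USP18, which removes the ubiquitin-like protein ISG15 and is induced by interferon, was the single member called lower. It read -2.57 and -0.94 at a probe in the dark patch, a difference of -1.64, where the 18 nearest spots had a median of -1.07. Outside the patches, at chr5:81777669-81777728 on the plus strand, it read -3.61 and -2.58, a difference of -1.03 or 2.05-fold lower, short of the threshold. Both probes were lower in the crossbred pool, and the larger value was read where the surroundings were low too.
USP18 810: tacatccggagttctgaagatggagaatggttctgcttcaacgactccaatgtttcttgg

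USP25, a relative of USP28 that acts in immune signalling, gave 1.39, -0.60 and 0.42 at its probes, from 1.66 and 0.27 at the brightest. USP28, which steadies MYC, gave -0.58, 1.16 and -0.29. For both genes the probes disagreed by more than 1.5 and no direction can be given. USP15 gave 0.42 at its brightest probe (2.17 and 1.74) and -1.12 and -1.003 at the next, and a further probe was at least 1.38-fold higher in the Zebu pool. The array files place the brightest and the Zebu-only probe at chr5:55441079-55441138 and chr5:55441400-55441459 on the plus strand, but the others at chr5:112624793-112624852 and chr5:112625678-112625737 on the minus strand, so these may not be readings of 1 transcript.

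USP39, a spliceosome protein without protease activity, had the largest difference of all member probes, in the dark patch. The probe at base 314 (chr11:51146254-51149619, minus strand, across a splice junction) lay in the patch and read -4.70 and -1.52, a difference of -3.18, where the nearest spots had a median of -2.86. The probe at base 1323 (chr11:51126603-51126662, minus strand) read -2.38 and -2.00 (-0.38), and the brightest probe read 2.55 and 2.87 (-0.32). Outside the patch USP39 was thus near 0 and of the same sign at both probes.
USP39 314: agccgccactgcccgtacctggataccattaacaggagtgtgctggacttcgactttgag
USP39 1323: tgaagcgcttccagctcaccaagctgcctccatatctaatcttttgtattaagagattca

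USP4, a relative of USP15 and USP11 that acts on the spliceosome, gave -0.04 to 0.26 at 4 probes, of which 1 pair shares 53 bases. Among enzymes of receptor and membrane traffic, USP8, which works with the ESCRT complex on endosomes, was near 0 at all 5 probes, from -0.26 to 0.00. USP32 was the highest of this list at 0.87 (0.37 and -0.50), with 0.37, 0.16 and -0.61 at its other probes. USP33 was the lowest, at -0.83 in the dark patch (0.03 and 0.86, nearest spots -0.59) and at -0.56 and -1.07 outside it. USP10, which steadies p53, read -1.18 and -0.40, a difference of -0.78 from 2 spots at -0.88 and -0.67, and USP19 and USP20 lay at -0.06 and -0.01. USP20 gave 0.35 and 0.16 at its other probes.

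Enzymes that pair with the activator WDR48 ranged from USP12 at 0.64 (1.72 and 1.07) to USP46 at -0.50 (-2.63 and -2.13), with USP1, which acts in DNA crosslink repair, at 0.26 (2.33 and 2.07). At their other probes USP12 gave 0.27, USP46 gave -0.03 and USP1 gave 0.40. In the cell cycle and DNA repair list USP48 was the highest at 0.42 (1.43 and 1.01) and USP28 the lowest. The other USP48 probe gave 0.15. USP34 had 6 probes, from -0.62 to 0.12, and USP37 gave -0.23 at its single probe. USP47 gave -0.26 at its brightest probe and 0.67 and -0.50 at the others, and USP24 gave 0.20 at its brightest probe but was at least 1.69-fold higher in the Zebu pool at the other detected one. None of the 9 genes of these lists passed the threshold at its brightest probe.

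Of the remaining USP genes, USP53, a tight junction protein, read 1.93 and 2.85 at its brightest probe, a difference of -0.92, and 0.16 and 1.71 at the other, a difference of -1.55. Both were lower in the crossbred pool. A probe listed by accession and described as USP53 gave -0.94. The array files place it on chromosome 1 and the other probes on chromosome 6. It is thus not counted as a reading of USP53, except in the alternative that adds probes listed by accession. USP43 read -3.47 and -4.95, a difference of 1.48 that lay just short of the threshold and was 0.74 with normexp background correction, and was at least 1.94-fold higher in the crossbred pool at another probe. USP40 gave -0.09 and, at a probe detected on the Zebu array only, a Zebu value at least 1.31-fold higher. USP38, USP45 and USP6NL lay at -0.09, -0.40 and 0.27. USP45 read -5.68 and -5.28, near the lowest values detected on the arrays (-5.78 crossbred and -5.94 Zebu). A probe listed by accession and described as USP45 was detected on neither array.

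Of 25 other genes of the pathway, 24 were on the array by name and 23 were detected, all of them on both arrays. Past the threshold 2 were higher and none was lower at the brightest probe, where the background given above was 7.12% and 2.92%, and 11 were above 0 and 12 below. YOD1, an OTU enzyme of endoplasmic reticulum quality control, read -0.19 and -1.88 at 1 probe and -3.44 and -5.40 at the other, differences of 1.70 and 1.96. WDR20, which activates USP12 and USP46, read 0.52 and -1.15, a difference of 1.67 at its only detected probe. Short of the threshold, ATXN3, a deubiquitinase of the Josephin type, was higher at 3 probes by 1.16 to 1.19, and ADRM1, the proteasome receptor of UCHL5, by 0.82 to 1.36 at 4 probes.

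Of the JAMM proteases, PSMD14, the essential enzyme of the proteasome lid, BRCC3, STAMBP, STAMBPL1 and MYSM1 lay at -0.56, -0.90, -0.75, -0.94 and -0.42, while COPS5, which removes NEDD8 from cullins, lay at 0.53. BRCC3 had 1 probe at -2.00 (-5.27 and -3.27). The activating subunits shared by USP22 and its relatives, ATXN7L3 and ENY2, lay at 0.10 and -0.05, and the activator WDR48 at -0.04. UCHL1, an abundant enzyme of spermatogonia, was lower at its 3 probes, from -0.78 to -0.44, with 4.45 and 5.07 at the brightest. Of genes that encode ubiquitin itself, UBB gave 0.28 to 0.62 at 4 probes, and RPS27A, a fusion with a ribosomal protein, gave -0.54 at its only detected probe.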

How the data were processed

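Testis RNA pooled from 3 crossbred and from 3 Zebu bulls was measured on 1 array each. The authors deposited the processed signal of each spot, an intensity that the scanner software had background-subtracted and detrended within the array, the mean and local background intensity, other flags of the software (well above background, saturated, outlier), and log2 values after a shift by the 75th percentile. The members, lists and alternatives were chosen with earlier results of these data known.

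Of 61657 non-control spots, 13 outliers were left out and none was saturated. The share of spots marked well above background was 72.0% (crossbred) and 74.3% (Zebu). From the processed signal, log2 values were taken, repeated spots averaged, and the array's 75th percentile subtracted. A gene was read from the probe with the highest mean value. Where 1 array was not well above background, a fold was given as a lower bound against the higher of its own value and the lowest value detected there. Named were genes with a probe past the threshold, with probes over 1.5 apart, with a spot in a patch or not detected, all members of the short lists, and the extremes of the others. Other alternatives were normexp with an offset of 50, shifts by other quantities, quantile normalization, the mean of all probes, patches left out, other thresholds, and 3 added after seeing the data (USP6NL left out, probes listed by accession added, the probe brightest on either array). No genome was used. The steps were tested on simulated data. Software was R 4.3.3 (limma 3.58.1) and Python 3.11.15 (pandas 2.3.3, numpy 2.4.6). The number of arrays limits the precision. Some genes of the pathway list are counted but not reported here by name.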

Additional observations from a re-analysis of the deposited data

How the results depend on the processing

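The median difference of the members stayed between -0.13 and -0.03 under all alternatives that give a median. The 4 genes higher and the 1 lower were called under the shift by the median, the 75th percentile over detected probes, quantile normalization, the authors' values, detection on both arrays, and the 3 alternatives added later. Asking for detection on both arrays could not alter these calls, since the called genes all had it. Nor could leaving out USP6NL, which touches no other gene. With normexp 3 genes were higher (USP44 at 1.29 was not) and 0 lower, where the calls of all gene names fell to 4.16% and 0.683%. With the patches left out 3 were higher and 0 lower, since OTUB2 reversed to -0.16 and USP18 came to -1.04, against 6.97% and 2.63% of all gene names. With each gene read as the mean of its detected probes, 2 were higher (USP49 at 1.77 and USP50 at 1.81) and 0 lower, against 5.98% and 1.82%. A threshold of 1 gave 7 higher and 2 lower, against 12.8% and 8.87% of all gene names, a threshold of 2 gave 2 and 0, against 3.49% and 1.2%, and every probe counted on its own gave 6 and 5. Leaving out USP6NL or asking for detection on both arrays could not move the values of the 13 named genes. Shifts by other quantities changed all values alike. With these settings counted too, of 143 values under alternatives 134 stayed within the spot SD, 8 moved further and 1 called value reversed, that of OTUB2. Among those that moved, OTUD4, not called, also changed sign, from -0.18 to 0.36 with the mean of its probes, and USP43 came to 0.74 with normexp. No paired analysis was possible because each group had 1 array. Arrays of single bulls, a repeat of the array and the 3 animals of each pool as separate samples were not analysed here, so the spread between bulls is unknown. Dim probes give bounds only, and spots near background limit USP26, USP40, USP45 and the USP22 probe named above.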

Other observations

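Deubiquitinases that the array lists only by accession fall outside the name rule. By their descriptions, 32 probes name a deubiquitinase, 25 of them were detected, and 1 passed the threshold, the USP49 probe given above. USP54, a USP family member, read 1.82 and 1.91 on the crossbred and Zebu arrays at its brightest probe, a difference of -0.09, with 0.12 and -0.78 at the other detected probes. OTUD6B, an OTU enzyme linked to protein synthesis, gave -0.04 and 0.50. USP35, linked to mitochondrial turnover, gave -0.25 at its detected probe.

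For members that also have probes under their own name, the readings by accession added the following. USP28 gave -1.14, beside -0.58, 1.16 and -0.29 above. OTUD5, detected by a single probe under its name, gave -1.21 beside -0.34. USP32 gave 0.65, 0.70, 0.22, -0.56 and -0.24 over 5 probes. OTUD1 at -0.52, OTUD4 at -0.32, USP3 at -0.42, USP40 at -0.24, USP46 at -0.32 and USP37 at 0.15 had the sign of the brightest probe under the gene's own name, except USP37.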
